A study of Arabidopsis thaliana with 14 samples.

Results

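Genes of cell wall polysaccharides and expansins were followed in whole 10-day-old seedlings of Arabidopsis thaliana, ecotype C24, comparing a fen1 mutant with the transgenic wild type (TWT), its control. FEN1 is flap endonuclease 1, which trims DNA flaps during replication and repair. The members were the rows of the deposited RNA table whose short description names an expansin, xyloglucan, pectin, cellulose synthase, arabinogalactan, glycosyl hydrolase or polygalacturonase, without kinases and without 2 listed root hair genes, EXPA7 and RHS14. This gave 46 of the 1114 genes in the table, all protein-coding. Both genotypes were grown on plates without further treatment. The labels do not name the transgene that the control carries or the kind of mutation in fen1. RNA came from 2 libraries of each genotype, and chromatin immunoprecipitation (ChIP) from 1 library per histone mark, of which the TWT peak lists of H3K4me3, H3K27me3 and H3K9me2 were used.

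The plant cell wall is a network of cellulose fibres tied by xyloglucan and embedded in pectin, with arabinogalactan proteins at its inner face. Expansins loosen the bonds between the polymers without cutting them, and xyloglucan endotransglucosylase/hydrolases (XTHs) cut and rejoin xyloglucan chains. Pectin methylesterases strip methyl groups from pectin, which lets it stiffen with calcium or be degraded by polygalacturonases and pectate lyases, and small inhibitor proteins hold the methylesterases back. Each of these families has many members that divide the work among organs, and some are used mainly in roots or root hairs.

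The table held 1 value per genotype, read as FPKM (fragments scaled to the length of the transcript and the size of the library), so a level can be compared between genes. No value per library was used, so no SD stands beside a level, read depth is unknown, and a gene is called where the authors' own test gave a q under 0.05. All 46 genes passed it, because the table lists passing genes alone, and the count passing is therefore no result. FEN1 itself (AT5G26680) stood at 14.5 FPKM in TWT and 22.7 FPKM in fen1 by the authors' deposited table (q = 0.00462). Since the kind of mutation is not given, that level does not check the genotype. In whole seedlings, fewer cells of a type and less RNA per cell cannot be told apart.

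The cell wall genes moved both ways. In fen1, 25 of the 46 were higher and 21 were lower, or 54.3% higher, against 61.4% of all 1114 listed genes. Across the 20132 genes that the authors tested, 3.40% were called higher and 2.14% lower. By the authors' deposited table, the median log2 fold change of the 25 higher members was 0.95 and that of the 21 lower members −0.65, beside 0.95 and −0.72 over all listed genes. At least 2-fold changes were seen for 11 higher and 3 lower members, and for 320 and 127 of all listed genes. Members were thus 3.44% and 2.36% of the listed genes that changed that far, against 4.13% of the whole table. The remaining 18 falls among members were smaller than 2-fold. At a q under 0.01, 22 members were higher and 11 lower, or 4.41% and 4.44% of the 499 and 248 listed genes. Of all tested genes, 1.59% and 0.631% changed at least 2-fold, and 2.48% and 1.23% passed a q under 0.01. These last shares are not like for like, since every member had already passed a q under 0.05. Of the 46, 24 had the smallest p the authors' test gave, 5e-05, which corresponds to a q of 0.00173.

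**Figure D1:**
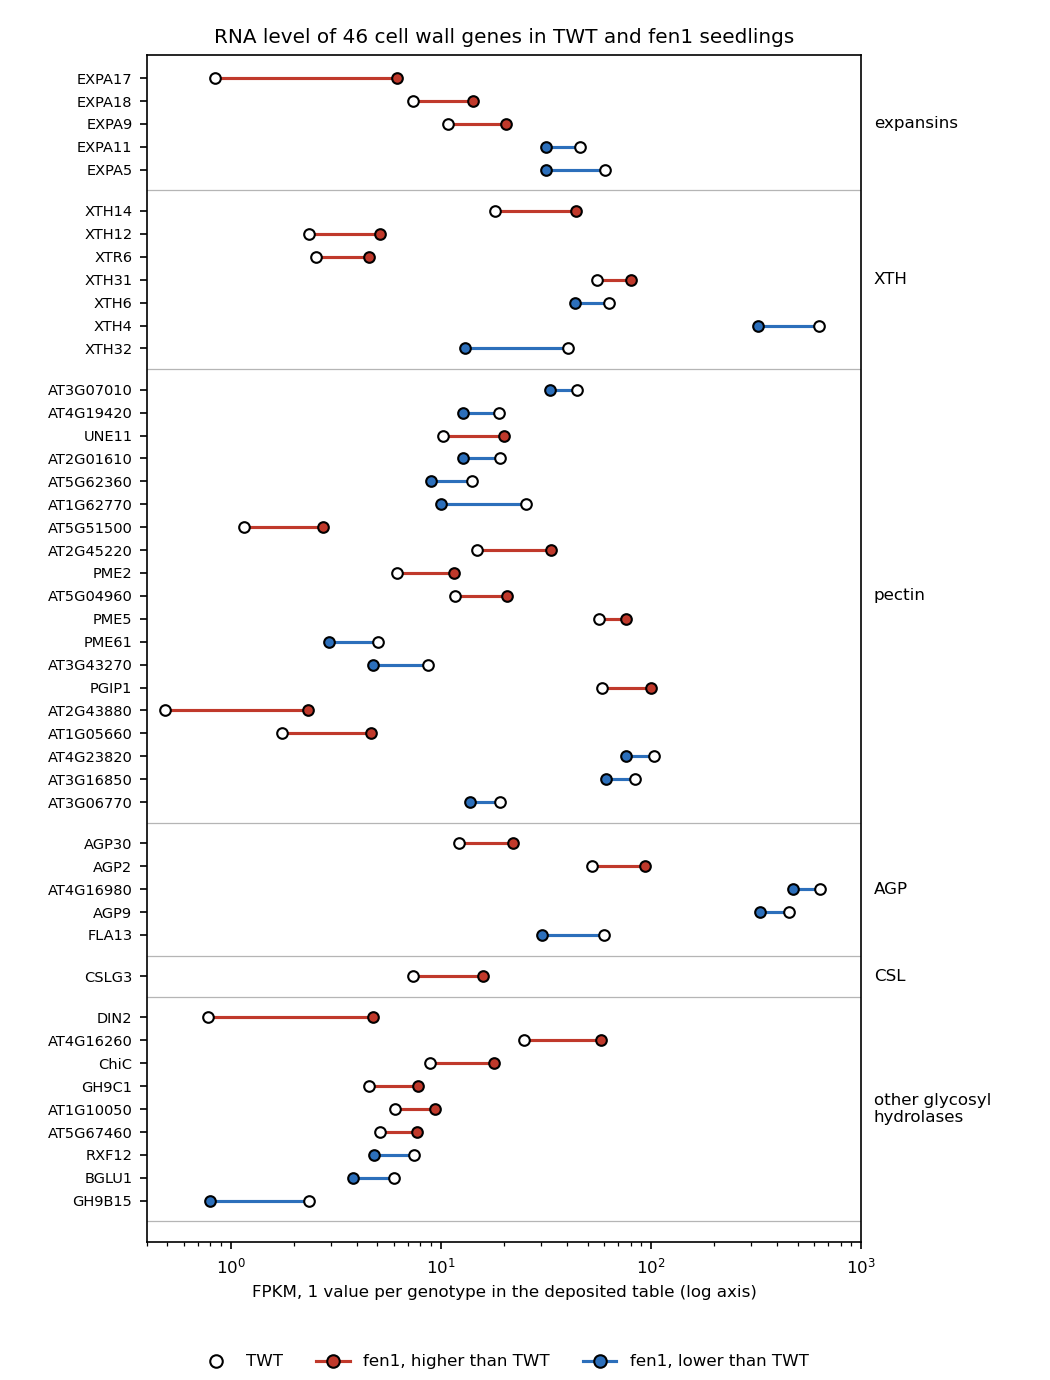
Level of each of the 46 cell wall genes in TWT (open circles) and fen1 (filled circles), in FPKM on a log axis, by family; red lines mark the 25 genes higher in fen1 and blue lines the 21 lower. Long red lines sit at the left, as for EXPA17 from 0.85 to 6.20 FPKM, and the most abundant genes at the right, such as XTH4 from 628 to 324 FPKM, run to lower values in fen1.

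Expansins split by their level in TWT: the 3 with the lowest levels rose and the 2 with the highest fell. Sorting by TWT level favours such a split by construction, and the whole table leaned the same way. Of all listed genes, 77.4% rose at or below the TWT median of 10.9 FPKM (the authors' deposited table), against 45.4% above it. EXPA17, an expansin that acts in lateral root formation (AT4G01630, chromosome 4, 700653 to 701527, TAIR10), had the largest fold change of all 46 members. It was at 0.85 FPKM in TWT and 6.20 FPKM in fen1 by the authors' deposited table (7.31-fold, log2 2.87, q = 0.00322), and the log2 change was 1.96 with 1 FPKM added to both levels. EXPA18, an expansin of root hairs, rose from 7.37 to 14.3 FPKM (the authors' deposited table; log2 0.95, q = 0.00173). EXPA9 rose from 10.8 to 20.5 FPKM (the authors' deposited table; log2 0.92, q = 0.00173). The 3 genes that rose all stayed below the 2 that fell, in both genotypes.

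EXPA5 (AT3G29030, chromosome 3, 11011308 to 11013358) fell from 60.8 to 31.8 FPKM (the authors' deposited table; 1.91-fold, q = 0.00173). EXPA11 fell from 46.2 to 31.8 FPKM (the authors' deposited table; log2 −0.54, q = 0.0127). The 2 genes thus reached nearly the same level in fen1. Summed over the 5 expansins, TWT had 126 FPKM and fen1 105 FPKM by the authors' deposited table, and 65.2 against 72.7 FPKM without EXPA5.

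Of the 34 expansin genes of a list of the family that could be matched by name (it leaves out EXPA7), 29 were not in the table. EXPA7, which the choice of members excludes, is the closest relative of EXPA18 in the annotation. It rose from 3.59 to 9.21 FPKM (the authors' deposited table; log2 1.36, q = 0.00173), the same direction as EXPA18. RHS14, the other gene that the choice of members excludes, rose from 0.83 to 2.34 FPKM (the authors' deposited table; log2 1.49, q = 0.00717).

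The XTH genes were the family with the largest loss of summed level. Their 7 members went from 811 FPKM in TWT to 514 FPKM in fen1 by the authors' deposited table (1.58-fold lower), and a single gene carried that fall. XTH4, a broadly used xyloglucan transferase (AT2G06850, chromosome 2, 2763526 to 2765720), fell from 628 to 324 FPKM (the authors' deposited table; 1.94-fold, log2 −0.96, q = 0.00173). Without XTH4 the other 6 summed to 182 FPKM in TWT and 191 FPKM in fen1 by the authors' deposited table. XTH6 fell from 63.4 to 43.7 FPKM (the authors' deposited table; log2 −0.53, q = 0.00943).

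XTH32 and XTH31, each named in the annotation as the closest relative of the other, moved in opposite directions. XTH32 (AT2G36870, chromosome 2, 15472645 to 15474681) fell from 40.5 to 13.01 FPKM (the authors' deposited table; 3.11-fold, log2 −1.64, q = 0.00173), the largest fold decrease of all members. XTH31, an enzyme of root walls (AT3G44990, chromosome 3, 16446975 to 16448764), rose from 55.7 to 80.4 FPKM (the authors' deposited table; 1.44-fold, log2 0.53, q = 0.00462). In TWT the pair stood near each other, and in fen1 XTH31 was well above XTH32.

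The other XTH genes that rose were of low or moderate level. XTH14, an enzyme of roots and root hairs, went from 18.04 to 43.8 FPKM (the authors' deposited table; log2 1.28, q = 0.00173). XTH12 went from 2.35 to 5.11 FPKM (the authors' deposited table; log2 1.12, q = 0.00717). XTR6, also called XTH23, went from 2.55 to 4.56 FPKM (the authors' deposited table; log2 0.84, q = 0.0433). XTR6 and XTH14 are neighbours on chromosome 4 in the same strand direction, with 412 bp between the end of XTR6 at 13129884 and the start of XTH14 at 13130297, and no other 2 members lie within 20 kb of each other. All 33 XTH genes could be matched by name, and 26 of them were not in the table.

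Pectin methylesterases and their inhibitor-type proteins moved mostly apart. Of 7 members with the catalytic methylesterase domain, 5 rose and 2 fell, and of 4 members with the inhibitor domain alone, 1 rose and 3 fell. The words that chose the members leave out the listed methylesterase RHS12, so these counts and sums cover members alone. Summed levels by the authors' deposited table went from 105 to 152 FPKM for the methylesterases and from 69.0 to 51.8 FPKM for the inhibitor-type genes. AT1G62770 had the largest fall among the inhibitor-type genes. Without it they summed to 43.6 and 41.7 FPKM by the authors' deposited table, where the rise of UNE11 offset much of the falls of AT2G01610 and AT5G62360. Whether the 2 kinds differ in direction was not tested.

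Among the methylesterases, AT2G45220 (PME17, which is induced by pathogens) rose by 2.25-fold. It was at 14.9 FPKM in TWT and 33.5 FPKM in fen1 by the authors' deposited table (log2 1.17, q = 0.00173). PME5, which softens the wall of the shoot apex, went from 56.9 to 76.1 FPKM (the authors' deposited table; 1.34-fold, q = 0.0391) and was the most abundant of the 7 in both genotypes. AT5G51500 rose from 1.15 to 2.76 FPKM (log2 1.26, q = 0.00593) by the authors' deposited table. PME2 rose from 6.19 to 11.6 FPKM and AT5G04960 from 11.6 to 20.6 FPKM (the authors' deposited table; q = 0.00173 for both). AT5G04960 has RHS12, a root hair specific methylesterase, as its closest relative, and RHS12 was also higher (log2 1.01 by the authors' deposited table). The 2 that fell were AT3G43270, from 8.70 to 4.75 FPKM (q = 0.00173), and PME61, from 5.04 to 2.93 FPKM (q = 0.00593), by the authors' deposited table.

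Among the inhibitor-type genes, AT1G62770 (chromosome 1, 23245886 to 23246890) had the largest change, at 25.4 FPKM in TWT against 10.1 FPKM in fen1 (the authors' deposited table; 2.52-fold, log2 −1.33, q = 0.00173). AT2G01610 fell from 19.2 to 12.8 FPKM and AT5G62360 from 14.1 to 8.95 FPKM (the authors' deposited table; q = 0.0208 and 0.0310). UNE11 rose from 10.3 to 20.0 FPKM (the authors' deposited table; 1.94-fold, q = 0.00173). The annotation names AT1G62770 as the closest relative of UNE11, so this pair also moved in opposite directions: AT1G62770 was the higher of the pair in TWT and UNE11 in fen1.

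Pectin-degrading enzymes of glycosyl hydrolase family 28, to which the polygalacturonases belong, split by level, as did the expansins and, in part, the whole table. The 2 scarce ones rose: AT2G43880 from 0.49 to 2.34 FPKM (4.77-fold, log2 2.26, or 1.16 with 1 FPKM added to both levels, q = 0.00943) and AT1G05660 from 1.76 to 4.64 FPKM (2.63-fold, q = 0.00173) by the authors' deposited table. The 3 abundant ones fell 1.36-fold to 1.39-fold by the authors' deposited table. These were AT4G23820 from 103 to 75.9 FPKM, AT3G16850 from 84.1 to 61.2 FPKM and AT3G06770 from 19.1 to 13.7 FPKM (the authors' deposited table; q = 0.0261, 0.0180 and 0.0406). AT3G06770 is the closest relative of AT3G16850 in the annotation.

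AT3G07010, the 1 pectate lyase gene among the members, fell from 44.6 to 33.2 FPKM (the authors' deposited table; log2 −0.42, q = 0.0483). It was the weakest call among the members. AT4G19420 (PAE8), a pectin acetylesterase, fell from 18.9 to 12.7 FPKM (the authors' deposited table; log2 −0.57, q = 0.00717). PGIP1, a defence protein that blocks the polygalacturonases of fungi (AT5G06860, chromosome 5, 2132350 to 2133587), rose from 58.7 to 100.3 FPKM (the authors' deposited table; 1.71-fold, q = 0.00173). It was the most abundant member among those that rose, in both genotypes. Taking the 19 pectin enzymes and inhibitors among the members, which leave out RHS12, 9 rose and 10 fell. They summed to 505 FPKM in TWT and 508 FPKM in fen1 by the authors' deposited table.

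Arabinogalactan proteins included 2 of the 3 most abundant members, and both were lower in fen1. AT4G16980 fell from 640 to 474 FPKM and AGP9 from 452 to 332 FPKM (the authors' deposited table; log2 −0.43 and −0.44, q = 0.0353 and 0.0208). FLA13, a fasciclin-like arabinogalactan protein anchored in the plasma membrane, fell from 59.9 to 30.5 FPKM (the authors' deposited table; 1.97-fold, q = 0.00173). AGP2 rose from 52.5 to 93.4 FPKM and AGP30, a protein of roots, from 12.2 to 22.0 FPKM (the authors' deposited table; log2 0.83 and 0.86, q = 0.00173 for both). Before the change AGP2 and FLA13 had similar levels, and in fen1 they stood at 93.4 and 30.5 FPKM by the authors' deposited table. Of 48 arabinogalactan protein genes matched from the family list, which do not include AT4G16980, 44 were not in the table.

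CSLG3, of the G branch of the cellulose synthase-like family, was the single member named for cellulose synthase. It rose from 7.35 to 15.8 FPKM (the authors' deposited table; 2.15-fold, q = 0.00173). The remaining 9 members are glycosyl hydrolases of several families, some of which act on substrates other than the wall, and 6 of them rose. DIN2, a beta-glucosidase induced by darkness and in senescing leaves (AT3G60140, chromosome 3, 22216672 to 22220824), rose from 0.78 to 4.78 FPKM (the authors' deposited table; 6.12-fold, log2 2.61, or 1.699 with 1 FPKM added to both levels, q = 0.00173). Its closest relative in the annotation, BGLU28, was also higher (log2 1.96 by the authors' deposited table).

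AT4G16260, a family 17 glucanase, rose from 24.9 to 58.2 FPKM (the authors' deposited table; 2.33-fold, q = 0.00173). ChiC, a chitinase, rose from 8.89 to 17.9 FPKM (the authors' deposited table; 2.01-fold, q = 0.00173). GH9C1, an endoglucanase, rose from 4.55 to 7.80 FPKM and AT5G67460, also of family 17, from 5.13 to 7.69 FPKM (the authors' deposited table; q = 0.00173 and 0.0425). GH9B15, the other endoglucanase, fell from 2.36 to 0.79 FPKM (the authors' deposited table; 2.97-fold, log2 −1.57, or −0.90 with 1 FPKM added to both levels, q = 0.00173). The beta-glucosidase BGLU1 fell from 6.0 to 3.82 FPKM (the authors' deposited table; q = 0.0327).

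The xylanase genes RXF12 and AT1G10050, each the closest relative of the other, crossed. RXF12 fell from 7.49 to 4.79 FPKM (q = 0.00322) and AT1G10050 rose from 6.03 to 9.40 FPKM (q = 0.00173) by the authors' deposited table. Over all members, the annotation names a closest relative for 44, and for 9 of these the relative is in the table, in 7 distinct pairs. In 4 pairs both genes moved the same way, and in 3 they moved in opposite directions, namely XTH31 with XTH32, RXF12 with AT1G10050, and UNE11 with AT1G62770. For 9 other members the closest relative lies within 5 genes on the chromosome and is not in the table, as for PGIP1 and PGIP2. These 9 are CSLG3, ChiC, AT4G19420, AT5G62360, AT5G51500, PGIP1, AT2G43880, AT1G05660 and XTH12. The sources used here do not say how reads that match several copies were counted, and the levels of these members are uncertain.

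Genes that make wall polymers were looked up in the same table. None of 11 genes of primary wall cellulose synthesis, 15 of secondary wall synthesis, 15 of xyloglucan synthesis and 14 of pectin synthesis was listed. Neither was any of 14 wall-sensing receptor kinase genes, and CSLG3 was the single gene called of 23 cellulose synthase-like genes, or 4.35% higher. With 3.40% of all tested genes called higher and 2.14% lower, few or no calls are the background for lists of these lengths, so nothing is read from them. For genes that the table lacks, no change and too low a level to test cannot be told apart. Of the 28 entries of a pectin modification list, 20 could be matched by name and 8 could not. Of these 20 genes, 4 were higher and 2 lower, or 20.0% and 10.0%. Of the 34 expansins 8.82% were higher and 5.88% lower, of the 33 XTH genes 12.1% and 9.09%, and of the 48 arabinogalactan protein genes 4.17% in each direction. These 48 do not include AT4G16980, which fell. The lists were chosen with earlier results of these data known, and the shares were not tested. Every called gene of these lists is 1 of the 46 members.

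The TWT level of a member went with its direction. The 25 higher members had a median of 7.37 FPKM in TWT and the 21 lower members 40.5 FPKM by the authors' deposited table, beside 6.56 and 20.7 FPKM over all listed genes. Of the 10 members with the highest TWT level, 8 fell, and of the 10 with the lowest, 8 rose. Above the TWT median of all listed genes, 10.9 FPKM by the authors' deposited table, 9 members rose and 16 fell, or 36.0% higher, against 45.4% of all listed genes above it. At or below that level 76.2% of members rose, against 77.4% of all listed genes. Sorting by the TWT level puts genes that fell on the high side by construction. When members were sorted by the mean of both genotypes instead, 12 rose and 15 fell above the median of 12.6 FPKM by the authors' deposited table, and 13 rose and 6 fell at or below it. These are 44.4% higher above and 68.4% at or below, against 54.2% and 68.6% of all listed genes, so the lower side matched the whole table.

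**Figure D2:**
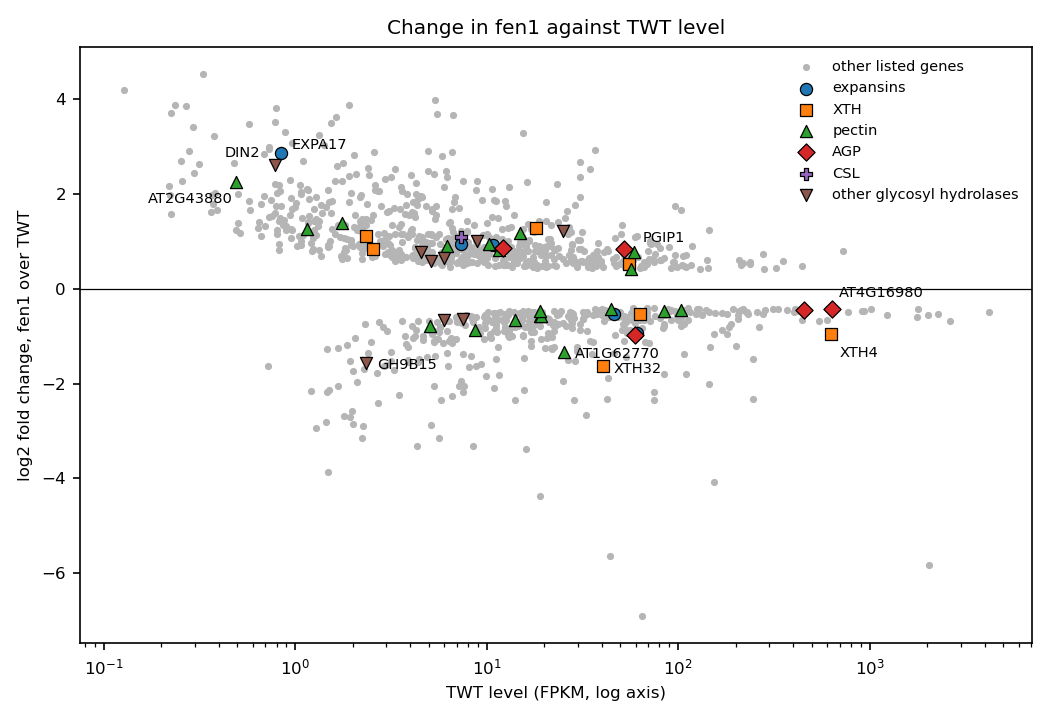
The log2 fold change of fen1 over TWT against the TWT level in FPKM (log axis), with the 46 cell wall genes as coloured symbols by family and the other listed genes above 0 in both genotypes as grey points. The empty band around 0 holds the genes that the table does not list. Of the 10 cell wall genes with the highest TWT level 8 lie below 0, among them XTH4 at −0.96 and AT4G16980 at −0.43.

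Direction also followed where the annotation places each gene's expression, a feature that the choice of members did not use. The table's computational description gives the plant structures in which a gene was found expressed for 39 of the 46 members. All 10 members for which it names 4 or fewer structures rose, and each of these 10 names the root. They are EXPA17, EXPA18, XTH14, AGP30, UNE11, PME2, GH9C1, AT2G43880, AT5G04960 and AT5G51500. Naming the root is common in the table: among other listed genes with 4 or fewer structures, 85 of 116 that rose and 34 of 38 that fell name it. The TWT levels of the 10 members ran from 0.49 to 18.04 FPKM by the authors' deposited table, with a median of 6.78 FPKM. The median was 8.89 FPKM for members with 5 to 13 structures and 42.5 FPKM for those with 14 or more. Breadth thus went with TWT level, which itself went with direction, and their parts were not told apart.

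The 7 members annotated with 5 to 13 structures rose too, among them XTH31, CSLG3, ChiC and DIN2. Of the 22 members annotated with 14 or more structures, 17 fell and 5 rose, and the 5 were EXPA9, PME5, PGIP1, XTR6 and AT5G67460. The comparison by plant structures was not among the comparisons planned at the start, and the bounds of 5 and 14 were set after the values were seen. Among the other listed genes, 75.3% of those with 4 or fewer structures rose, 77.5% of those with 5 to 13 and 56.0% of those with 14 or more. The median number of structures was 9.5 for higher and 22 for lower members, and 12 and 20 for the other listed genes. The share naming 4 or fewer was 45.5% of the 22 annotated higher members (exact Clopper-Pearson 95% interval 24.4 to 67.8%) and 0 of 17 annotated lower members (0 to 19.5%). For the other listed genes it was 27% of higher genes (22.9 to 31.5%) and 16.8% of lower genes (12.2 to 22.3%). These intervals cover counting error only, and the differences were not tested.

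**Figure D3:**
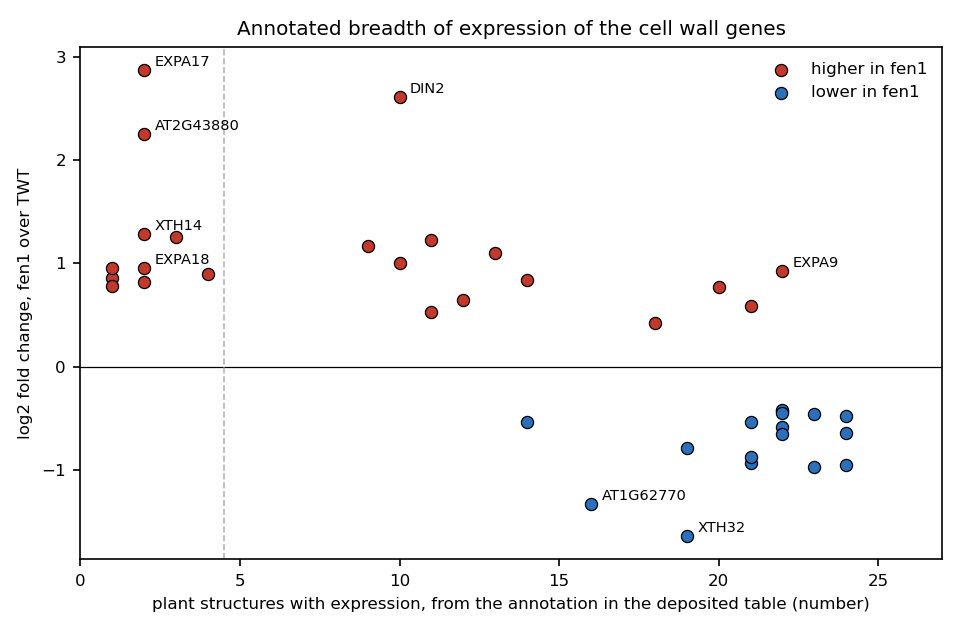
The log2 fold change of fen1 over TWT of the 39 cell wall genes with annotated expression, against the number of plant structures named or counted in the annotation; the dashed line separates genes with 4 or fewer structures. All 10 genes to the left of the line lie above 0, and the 17 genes that fell have 14 structures or more.

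Some markers of root hairs rose too. Of 11 root hair markers matched by name, 5 were called higher and none lower, against 3.40% and 2.14% of all tested genes. The list was chosen with earlier results of these data known and shares genes with the members, so this share is no independent support. The 5 were EXPA7, EXPA18, XTH14, LRX1, a wall protein of root hairs, and PRP3, a proline-rich wall protein of root hairs, of which EXPA18 and XTH14 are members. Together these 5 had 57.8 FPKM in TWT against 121 FPKM in fen1 by the authors' deposited table. This sum rises by construction, since it holds only the markers called higher. The regulators RHD6, RSL4 and RSL2 and the genes COBL9, MRH6 and AGP3 were not in the table. No gene was called of 8 pollen, 7 xylem, 5 seed coat or 5 abscission and dehiscence markers. The part of root hair number or root share in the rises was not tested.

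The histone marks that these genes carry in TWT were read from the peak lists, a gene counting as marked where a peak overlapped its interval by at least 1 bp. H3K4me3 marks active promoters, H3K27me3 is the mark of Polycomb silencing, and H3K9me2 marks silent heterochromatin. Of the 46 members 24 carried H3K27me3 (52.2%, exact Clopper-Pearson 95% interval 36.9 to 67.1%), against 36.3% of the other 1068 listed genes (33.4 to 39.3%). H3K4me3 was also on 24 members (52.2%, 36.9 to 67.1%), against 53.8% of the others (50.8 to 56.9%). H3K9me2 was on 0 of 46 members (0 to 7.71%), against 2.90% of the others (1.98 to 4.09%). The intervals of members and others overlap for every mark, which does not show that the shares are equal, and no test was made. The marks of fen1 were not analysed here.

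Higher members carried H3K27me3 on 15 of 25 genes (60.0%, 38.7 to 78.9%) and H3K4me3 on 10 (40.0%, 21.1 to 61.3%). Lower members carried H3K27me3 on 9 of 21 genes (42.9%, 21.8 to 66.0%) and H3K4me3 on 14 (66.7%, 43.0 to 85.4%). The other listed genes had H3K27me3 on 39.0% of higher and 32.0% of lower genes, and H3K4me3 on 47.0% and 64.8%. With so few members the intervals of higher and lower genes overlap for both marks, and whether the shares differ was not tested.

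**Figure D4:**
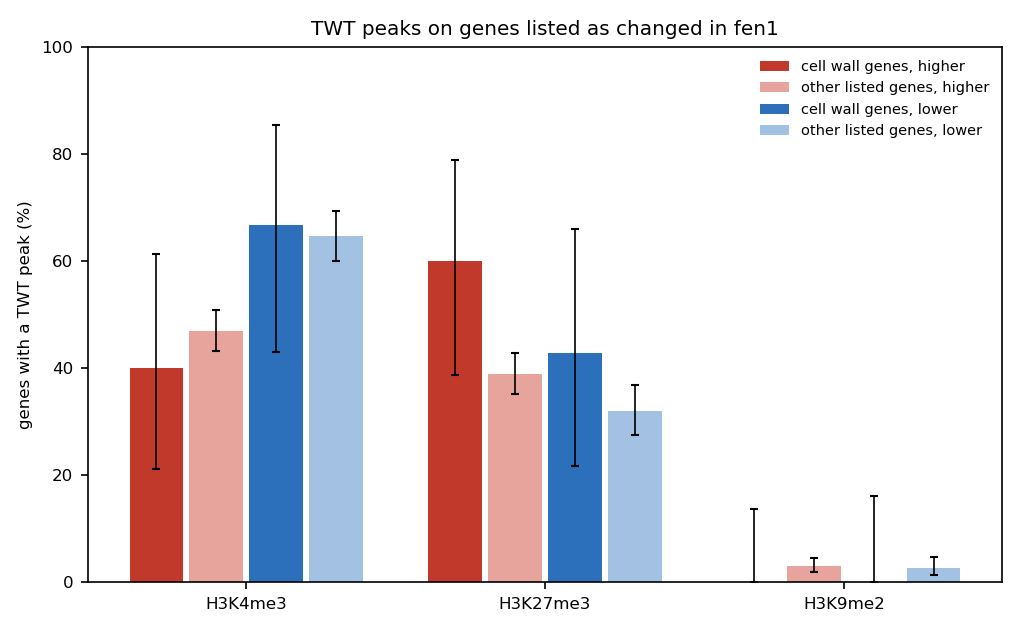
Share of genes with a TWT peak, in percent, for H3K4me3, H3K27me3 and H3K9me2, in cell wall genes and other listed genes that were higher or lower in fen1; lines are 95% intervals by the exact Clopper-Pearson method, for counting error alone. H3K27me3 stands at 60.0% of higher and 42.9% of lower cell wall genes, and H3K9me2 at 0 in both, so that no bar shows there.

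By combination, 17 members carried H3K27me3 alone, 17 H3K4me3 alone, 7 both and 5 neither. Those with H3K27me3 alone were of low level in TWT, with a median of 7.37 FPKM and a highest of 25.4 FPKM by the authors' deposited table, and 11 rose and 6 fell. Those with H3K4me3 alone had a median of 46.2 FPKM by the authors' deposited table, and 6 rose and 11 fell. Among the other listed genes the medians were 4.86 and 19.1 FPKM by the authors' deposited table, and 66.3% and 52.2% rose. Of the 10 members annotated with 4 or fewer structures, EXPA17 had no peak, UNE11 had both marks and the other 8 carried H3K27me3 alone. The H3K4me3 peak on UNE11, a gene of 826 bp, ran to 2549 bp from the gene start, well past its end. Marks by number of structures were not counted for the other listed genes, so no share stands beside these. The 5 members with no peak were EXPA17, EXPA5, PME5, XTH12 and XTR6, so EXPA5 and PME5 reached 60.8 and 56.9 FPKM in TWT by the authors' deposited table without a listed peak of either mark.

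Peaks are described by the score that the authors' peak caller gave, which ranks peaks within a list alone. The strongest H3K27me3 peak on a member covered all of AT5G51500 (chromosome 5, 20916977 to 20920039) with a score of 1090, where the median of the list is 125. PME2 (score 740), AT1G05660 (727) and XTH14 (601) followed, all higher in fen1. On XTH14 the peak spans the whole gene (chromosome 4, 13129899 to 13131938) and starts just past the end of XTR6, which has no peak.

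Among lower members the strongest H3K27me3 peak was that on GH9B15, with a score of 522. The 12 H3K27me3 peaks on lower members had a median score of 98.5 and the 20 on higher members 236. H3K4me3 peaks on members were mostly weak within their list, with median scores of 218 on higher and 777 on lower members against 1202 over the whole list. Of the 15 H3K4me3 peaks on lower members 12 covered the gene start, as on XTH4 (score 777) and AGP9 (score 1802), and of the 10 on higher members 6 did. The strongest H3K4me3 peak on a higher member, on AT4G16260, does not cover the gene start. It begins 79 bp inside the gene and runs 3355 bp, past its end.

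**Figure D5:**
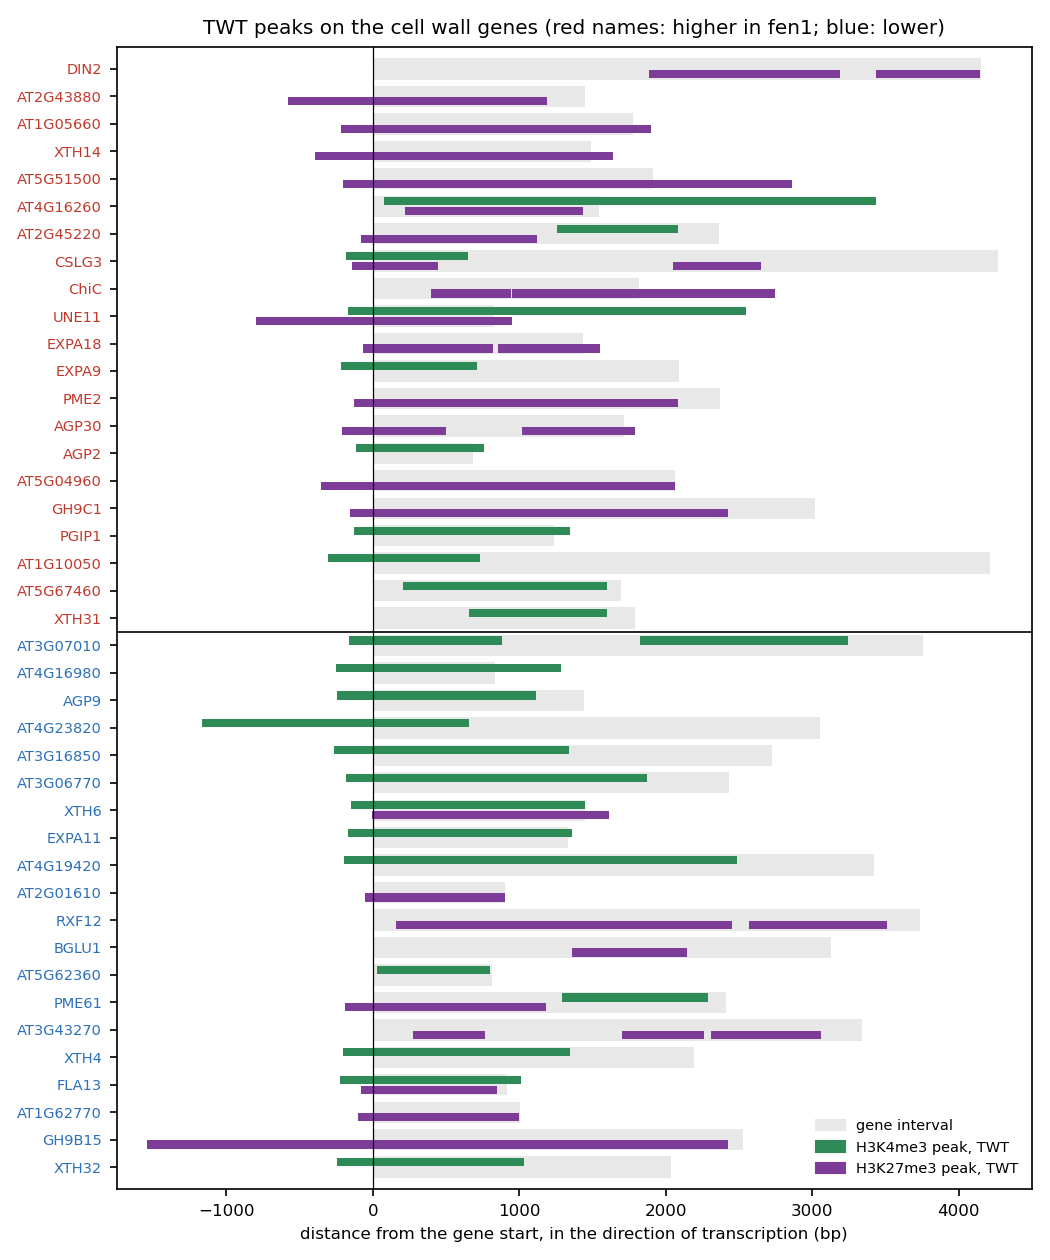
TWT peaks of H3K4me3 (green) and H3K27me3 (purple) on the 41 cell wall genes that carry either, drawn against the distance from the gene start in bp in the direction of transcription, with the gene interval in grey. Higher genes (red names) stand above the line and lower genes (blue names) below it, each ordered by fold change. Purple bars cover all or most of XTH14, AT5G51500 and AT5G04960, and green bars sit over the start of most lower genes.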

How the data were processed

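RNA was sequenced from 2 libraries each of TWT and fen1, and ChIP from 1 library per mark and genotype. Per the submitters' processing notes, Bowtie 0.12.9, SAMtools, TopHat2 2.1.1, Cuffdiff 2.1.1 and the TAIR10 genome were used, with no role or order given. The deposited RNA table gives 1 FPKM value per genotype, a log2 fold change of fen1 over TWT with no pseudocount, and the authors' p-value and q-value. Its header does not name the unit, and FPKM was read from its Cuffdiff layout. Whether the libraries of each genotype are separate cultures is not stated, so the p-values may measure technical spread. The peak lists deposited by the authors give positions and a score per peak from MACS, per the peak names in the files, for 1 library each.

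The number of tests, 20132, was computed as q times rank over p. Fold changes recomputed from FPKM differed from the deposited ones by at most 1.17e-05. No test of expression was added, because no values per library were used. Members were found by words of the short description and sorted into roles by the protein domains in the same table. Their symbols and the order of genes along chromosomes came from RefSeq genes of TAIR10.1 (46 of 46 matched), with no coordinates taken from it. BED starts were converted to 1-based positions. Shares have exact Clopper-Pearson 95% intervals. The members, the 10 gene lists and the 5 marker lists were chosen with earlier results of these data known. The rule for naming genes took, per word, the 4 largest rises and falls and the highest levels, which named 36 members. The other 10 were added after their values were seen. Promoter and protein sequences were not used here, so the planned motif and identity comparisons were not made. Computations used Python 3.11.15, pandas 2.3.3 and scipy 1.17.1. The formula for the number of tests was checked on simulated p-values, and the peak overlap function on made-up peaks. The other functions were not tested this way.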

Additional observations from a re-analysis of the deposited data

How the results depend on the processing

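Of 96 alternative values, 86 stayed within 1.5 times of the value given or, for shares of genes with a mark, within its interval. Recomputed as log2(FPKM + 1), all 46 fold changes of single genes kept their direction and 42 stayed within 1.5-fold. The other 4 shrank by more, EXPA17 to 1.96, DIN2 to 1.699, AT2G43880 to 1.16 and GH9B15 to −0.90, all of them under 1 FPKM in one genotype. Requiring at least 2-fold changes left 11 higher and 3 lower members, and a q under 0.01 left 11 lower members in place of 21. On the log2(FPKM + 1) scale the median change was 0.86 for higher and −0.55 for lower members. Counting only H3K4me3 peaks with a score at or above the median of their list gave 19.6% of members, 12% of higher and 28.6% of lower members. The same cut for H3K27me3 gave 39.1% of members, 52% of higher and 23.8% of lower members, within the intervals of the shares without it. Overlap of 200 bp, intervals widened by 1000 bp and, chosen after seeing the data, peaks on the first 500 bp kept each share within its interval. A bound of 10 structures and leaving out the glycosyl hydrolases for the TWT medians were also chosen after seeing the data and moved neither result by over 1.5 times. Leaving out single libraries was not run. No paired analysis was possible because no values per library were used.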

Other observations

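On 2 pectin methylesterase genes that moved in opposite directions, the TWT peaks of H3K27me3 and H3K4me3 lay end to end without overlap. On AT2G45220, which rose, the H3K27me3 peak ran from 82 bp before the gene start to 1122 bp inside it, and the H3K4me3 peak from 1258 to 2079 bp. On PME61, which fell, H3K27me3 ran to 1180 bp and H3K4me3 from 1293 to 2289 bp. The H3K4me3 scores were 57.4 and 431, both below the list's median of 1202.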
